A study of Homo sapiens with 6 samples.

Results

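The genes described here are 10 of the 770 probes of the nCounter PanCancer IO 360 panel, chosen by name: the ligands TGFB1, TGFB2, TGFB3, INHBA and BMP2, the receptors TGFBR1, TGFBR2 and ACVR1C, the decoy receptor BAMBI, and ID4. They were chosen with earlier results of these data known. All 10 were on the panel, and all 10 passed the filter on low values. The series measured RNA of PC3, an established cell line that was derived from prostate carcinoma in bone, grown in DMEM/F12 with serum. Cells carried an empty vector (EV) or an expression vector for the butyrophilin BTN1A1. Interferon-gamma was added at 100 ng/ml for 24 or 48 h, and the untreated cultures were labelled 48 h. There was 1 library in each of the 6 groups, so the 3 libraries of a vector stand for 3 conditions and are not repeats of 1 condition. The labels do not say whether the transfected cells were a pool or a clone, nor whether cultures were independent, so every p-value here measures only the spread between these libraries.

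TGF-beta ligands are secreted in a latent complex, are freed from it outside the cell, and bind the type II receptor TGFBR2, which then switches on the type I receptor TGFBR1. Activins such as the INHBA dimer and bone morphogenetic proteins such as BMP2 use sister receptors, and all of them pass the signal to SMAD proteins, which enter the nucleus and change transcription. ID proteins are helix-loop-helix factors without a DNA-binding region, and they are known as targets of BMP signalling. In prostate epithelium TGF-beta is known as a growth inhibitor, and in advanced carcinoma as a factor of invasion and bone metastasis.

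Barcode counts ranged from 221633 to 441611 per library and were scaled by the geometric mean of 20 housekeeping genes. Probes of T, NK, B and myeloid genes gauged the background: over 59 probes the scaled median was 18.4 to 25.7 with EV and 17.8 to 25.7 with BTN1A1 on the label, and the 90th percentile lay between 31.4 and 48.3. None of the 59 was at 0 in any library, and their summed scaled count was 1277 to 1687 in EV and 1059 to 1609 in the libraries labelled BTN1A1. Before the results, the labels were checked. PC3 is known to have lost STAT3. In the EV libraries STAT3 stood at 9.21 to 20.6 scaled counts, within the background. In the libraries labelled BTN1A1 it stood at 341 to 544, against what is known of PC3. The epithelial adhesion genes went the other way. CDH1 stood at 165 to 190 in EV and 22.1 to 38.0 in the libraries labelled BTN1A1, and EPCAM at 223 to 242 and 24.7 to 72.3. ERBB2, the other listed epithelial gene on the panel, overlapped, at 98.5 to 199 in EV and 97.1 to 148 in the libraries labelled BTN1A1. Vector and origin of the cultures cannot be told apart in this design, so the second set is called by its label throughout, and the EV libraries are also described alone. No probe measured BTN1A1 itself.

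The 4 members whose scaled counts spanned more than 2 log2 units over the 6 libraries were TGFB2, INHBA, TGFBR2 and ID4. Their upstream sequences are shown because of this wide span. Each is the 250 bases before the first start site listed for the gene, read on the coding strand from the RefSeq promoter table of GRCh38.p14. Capitals mark the TATA box letters TATAAA, the GC box letters GGGCGG and the interferon-gamma activation site TTCNNNGAA, each searched on both strands.
ID4, chr6:19837120-19837369, plus strand: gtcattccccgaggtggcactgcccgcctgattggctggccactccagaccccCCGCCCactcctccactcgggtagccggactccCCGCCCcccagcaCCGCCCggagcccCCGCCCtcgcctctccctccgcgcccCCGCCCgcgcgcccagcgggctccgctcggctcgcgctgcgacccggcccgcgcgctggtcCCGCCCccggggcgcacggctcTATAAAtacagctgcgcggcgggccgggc
TGFB2, chr1:218345086-218345335, plus strand: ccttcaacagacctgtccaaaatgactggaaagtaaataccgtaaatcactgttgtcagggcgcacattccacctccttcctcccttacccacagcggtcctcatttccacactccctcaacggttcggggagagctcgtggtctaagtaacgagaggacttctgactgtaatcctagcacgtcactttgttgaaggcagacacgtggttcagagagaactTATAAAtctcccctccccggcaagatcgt
INHBA, chr7:41703091-41703340, minus strand: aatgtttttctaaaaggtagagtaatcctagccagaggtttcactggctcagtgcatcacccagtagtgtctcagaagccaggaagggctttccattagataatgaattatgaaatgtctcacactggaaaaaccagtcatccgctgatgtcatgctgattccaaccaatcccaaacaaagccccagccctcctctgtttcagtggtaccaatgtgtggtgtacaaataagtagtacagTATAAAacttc
TGFBR2, chr3:30606106-30606355, plus strand: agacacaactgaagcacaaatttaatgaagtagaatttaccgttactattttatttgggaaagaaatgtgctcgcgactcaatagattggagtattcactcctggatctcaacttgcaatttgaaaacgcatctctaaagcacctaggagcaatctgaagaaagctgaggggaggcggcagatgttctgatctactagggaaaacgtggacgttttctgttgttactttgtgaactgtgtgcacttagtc

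The ID4 window held 6 GC boxes and a TATA box whose first base lay 29 bases before the start, and 78.8% of its bases were G or C. The TGFB2 window held a TATA box at the same distance of 29 bases and no GC box, with 50.4% G or C. The INHBA window held a TATA box 11 bases before the start (42.8% G or C), and the TGFBR2 window held none of the 3 motifs (40.8%). A promoter sequence was found for 9 of the 10 members. Among 27305 promoters of the same length, 11.1% held TATAAA, 42.3% held GGGCGG and 6.78% held TTCNNNGAA, and the median G or C content was 58%. None of the 9 members' windows held TTCNNNGAA or the palindromic SMAD element GTCTAGAC, which 0.176% of all promoters held. These are matches of letters and say nothing of binding.

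The first comparison was of the libraries labelled BTN1A1 with EV. The ligands TGFB1, TGFB2 and INHBA were lower in the libraries labelled BTN1A1. The receptor TGFBR2 was lower too, while TGFBR1, BMP2 and ID4 were higher. In edgeR's quasi-likelihood test, with condition as a term and Benjamini-Hochberg adjustment over all genes tested, 7 of the 10 members passed, 3 higher and 4 lower. Of all 669 genes tested 42.3% passed, 11.7% higher and 30.6% lower, so a call in this comparison was common on the panel. The median log2 difference was -0.22 over the 10 members and -0.32 over all genes tested. In 9 of the 10 members the scaled counts of the 2 vectors did not overlap, 5 lower and 4 higher in the libraries labelled BTN1A1, against 51.6% of all genes tested. Because the members were chosen with earlier results of these data known, shares above those of the panel are no independent result. In these bulk cultures fewer cells expressing a gene and less RNA per cell cannot be told apart. Of 7 markers of stroma and endothelium 3 passed as lower and 0 as higher. Their summed scaled count was 759 to 1081 in EV and 129 to 226 in the libraries labelled BTN1A1. COL6A3 was the largest part of the EV sum, at 463, 802 and 387, against 16.9, 10.2 and 27.0 in the libraries labelled BTN1A1. KDR came next in EV, at 114, 112 and 209 against 18.7, 14.5 and 28.2. The sum therefore mostly follows these genes, and the part of the markers in the members' values was not tested.

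**Figure D1:**
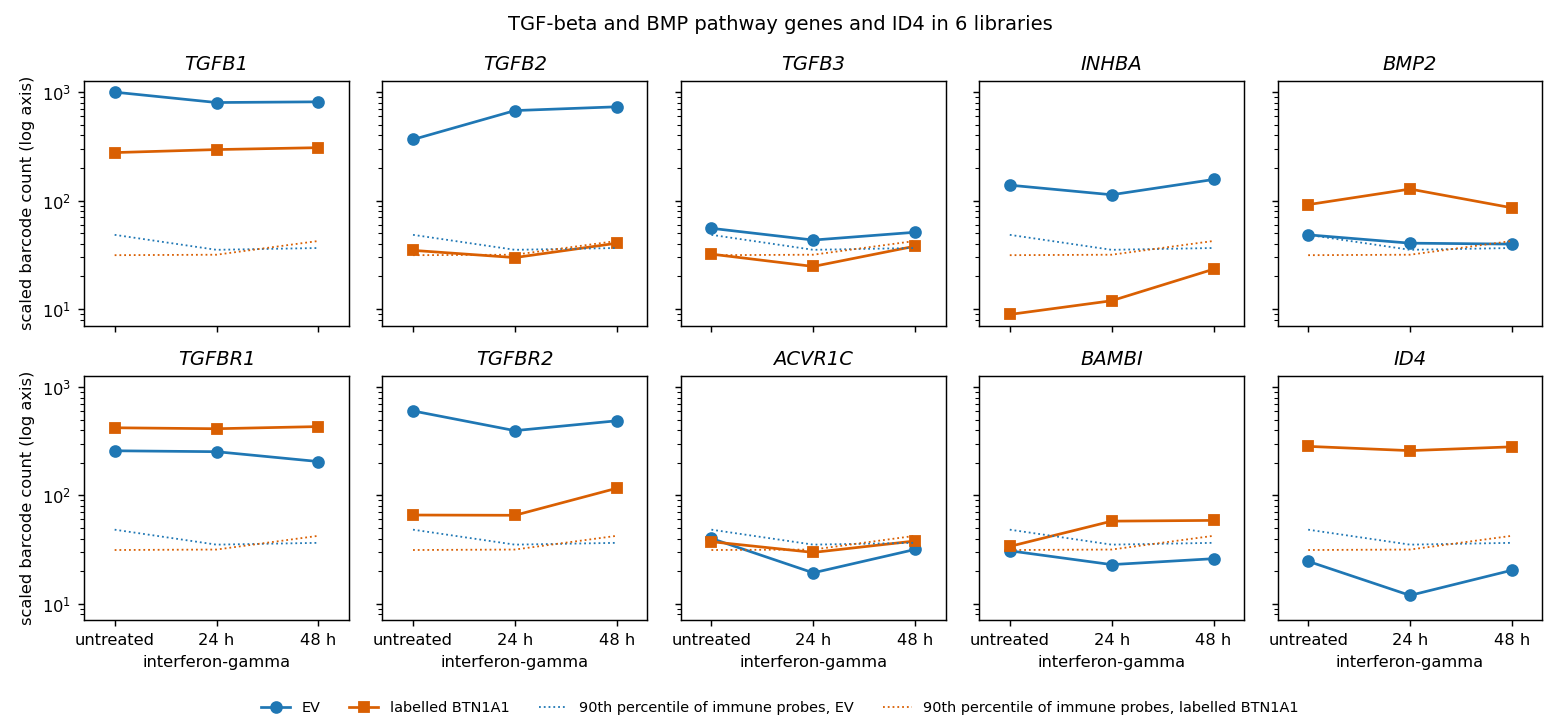
Scaled barcode counts (log axis) of the 10 members by condition, with circles for EV, squares for the libraries labelled BTN1A1, and dotted lines at the 90th percentile of 59 immune probes in the same library. Each point is 1 library and lines only join the conditions of a vector; the EV points of TGFB2 lie between 366 and 733 and those labelled BTN1A1 between 29.8 and 40.5, while ID4 shows the opposite order.

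Among the TGF-beta ligands, TGFB1, the most widely expressed isoform in adult tissues, stood at 1001, 803 and 815 scaled counts in EV (untreated, 24 h, 48 h). It stood at 277, 296 and 308 in the libraries labelled BTN1A1. All 3 EV libraries were higher than all 3 others, and the mean was 873 ± 111 (SD, n = 3 conditions) against 294 ± 15.4. The log2 difference was -1.57 (SE 0.27), with an edgeR adjusted p of 0.00235.

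TGFB2, an isoform known from epithelial-to-mesenchymal change and development, stood at 366, 677 and 733 in EV, against 34.8, 29.8 and 40.5 in the libraries labelled BTN1A1. The latter values lay at or near the 90th percentile of the immune probes, above it in 1 of 3 libraries, so the EV libraries carried TGFB2 well over background and the others barely. The log2 difference was -4.02 (SE 0.35, edgeR adjusted p 7.5e-05). By condition TGFB2 was 10.5-fold lower untreated, at least 22.7-fold lower at 24 h and at least 18.1-fold lower at 48 h, each from 1 library against 1. The last pair are bounds because the lower count did not exceed the immune probes' 90th percentile.

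TGFB3, the third isoform, stood at 55.5, 43.3 and 51.1 in EV, against 32.1, 24.7 and 38.0 in the libraries labelled BTN1A1. The sets did not overlap, but the EV values were not far over the 90th percentile of the immune probes, and the log2 difference of -0.67 (SE 0.31) did not pass (edgeR adjusted p 0.119).

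INHBA encodes the beta-A subunit of activin A and inhibin A. It stood at 139, 113 and 157 scaled counts in EV, against 8.91, 11.9 and 23.3 in the libraries labelled BTN1A1, where no library exceeded the 90th percentile of the immune probes. The log2 difference was -3.28 (SE 0.40, edgeR adjusted p 0.000404). With counts raised to a floor of 20, INHBA was at least 6.94-fold lower untreated, at least 5.66-fold lower at 24 h and at least 6.72-fold lower at 48 h. The last is also a bound because 23.3 lay under that library's immune median of 25.7.

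BMP2, a bone morphogenetic protein that induces bone formation, was the 1 ligand that was higher. It stood at 48.3, 40.5 and 39.7 in EV, against 91.8, 128 and 85.8 in the libraries labelled BTN1A1. The EV values were above the immune probes' 90th percentile in 2 of 3 libraries and the others in all 3, with a log2 difference of 1.23 (SE 0.34, edgeR adjusted p 0.0200). The call was lost without the 24 h library of either vector (log2 1.01 in each case, adjusted p 0.225 without EV and 0.202 without BTN1A1) and without EV at 48 h (1.29, adjusted p 0.0571).

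The pair of TGF-beta receptors differed in opposite directions. TGFBR1, the type I receptor kinase, stood at 258, 253 and 205 in EV, against 421, 412 and 432 in the libraries labelled BTN1A1. The difference was small but without overlap, at 0.83 in log2 (SE 0.26, edgeR adjusted p 0.0370). The call was lost when any of the 4 treated libraries was left out (adjusted p 0.0697 to 0.235), with log2 values of 0.70 to 0.89.

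TGFBR2, the type II receptor that binds TGF-beta first, stood at 602, 396 and 488 in EV, against 66.0, 65.6 and 116 in the libraries labelled BTN1A1. Every library was above the 90th percentile of its immune probes, so the gene was detected in both sets. The log2 difference was -2.61 (SE 0.33, edgeR adjusted p 0.000439). By condition the gap was 9.12-fold untreated, 6.03-fold at 24 h and 4.19-fold at 48 h.

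ACVR1C, the type I receptor known as ALK7, stood at 40.1, 19.3 and 31.8 in EV, against 37.4, 29.8 and 38.0 in the libraries labelled BTN1A1. The sets overlapped, and 0 of 3 EV libraries and 1 of 3 labelled BTN1A1, the untreated one, lay above the immune probes' 90th percentile. The log2 difference of 0.24 (SE 0.31) did not pass (edgeR adjusted p 0.605).

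BAMBI, a receptor-like protein that lacks the kinase region and blocks TGF-beta signalling, stood at 30.8, 23.0 and 26.1 in EV. It stood at 33.9, 57.9 and 58.9 in the libraries labelled BTN1A1. No EV library was above the immune probes' 90th percentile and all 3 others were. The log2 difference of 0.88 (SE 0.36) did not pass (edgeR adjusted p 0.0837). By condition it was 0.13 untreated, 1.33 at 24 h and 1.17 at 48 h, and without either untreated library it passed at 1.25 (adjusted p 0.00858 and 0.00831).

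ID4 was near background in EV and well above it in the libraries labelled BTN1A1. In EV it stood at 24.7, 12 and 20.4 scaled counts (24, 13 and 18 barcodes as deposited), below the immune probes' 90th percentile in every library. In the libraries labelled BTN1A1 it stood at 283, 259 and 281 (318, 304 and 229 barcodes). The log2 difference was 3.89 (SE 0.36, edgeR adjusted p 9.43e-05), and by condition ID4 was at least 11.5-fold higher untreated, at least 12.9-fold higher at 24 h and at least 13.7-fold higher at 48 h, bounds because the EV counts lay within the background. Within the libraries labelled BTN1A1 the order of the 3 conditions was not resolved: the log2 difference from untreated was -0.13 at 24 h (95% interval -0.36 to 0.10) and -0.01 at 48 h (-0.27 to 0.24). These intervals are exact binomial and cover counting error only.

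Library against library and without a test, 5 members differed at least 2-fold untreated, 1 higher and 4 lower (39.1% of all genes compared, 11.3% higher and 27.8% lower). There were 7 at 24 h, 3 higher and 4 lower (41.6%, with 9.25% higher and 32.4% lower), and 8 at 48 h, 4 higher and 4 lower (41.0%, with 13.0% higher and 28.0% lower). TGFB1, TGFB2, INHBA, TGFBR2 and ID4 made up the 5, BMP2 and BAMBI joined at 24 h, and TGFBR1 joined those at 48 h. The housekeeping genes that set the scale were not level between the vectors either: 3 of 20 passed as higher and 4 as lower, with log2 values from -1.61 to 1.54. Of the members called, TGFB1 (-1.57), BMP2 (1.23) and TGFBR1 (0.83) lay within that range. With TMM scaling the median over all genes tested moved from -0.32 to 0.07, the split of all calls moved from 78 higher and 205 lower to 117 and 161, and BAMBI passed (1.27, adjusted p 0.0267) beside the same 7 members. With total counts the median was 0.22, the split 120 and 148, and BAMBI also passed (1.43, adjusted p 0.0261).

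**Figure D2:**
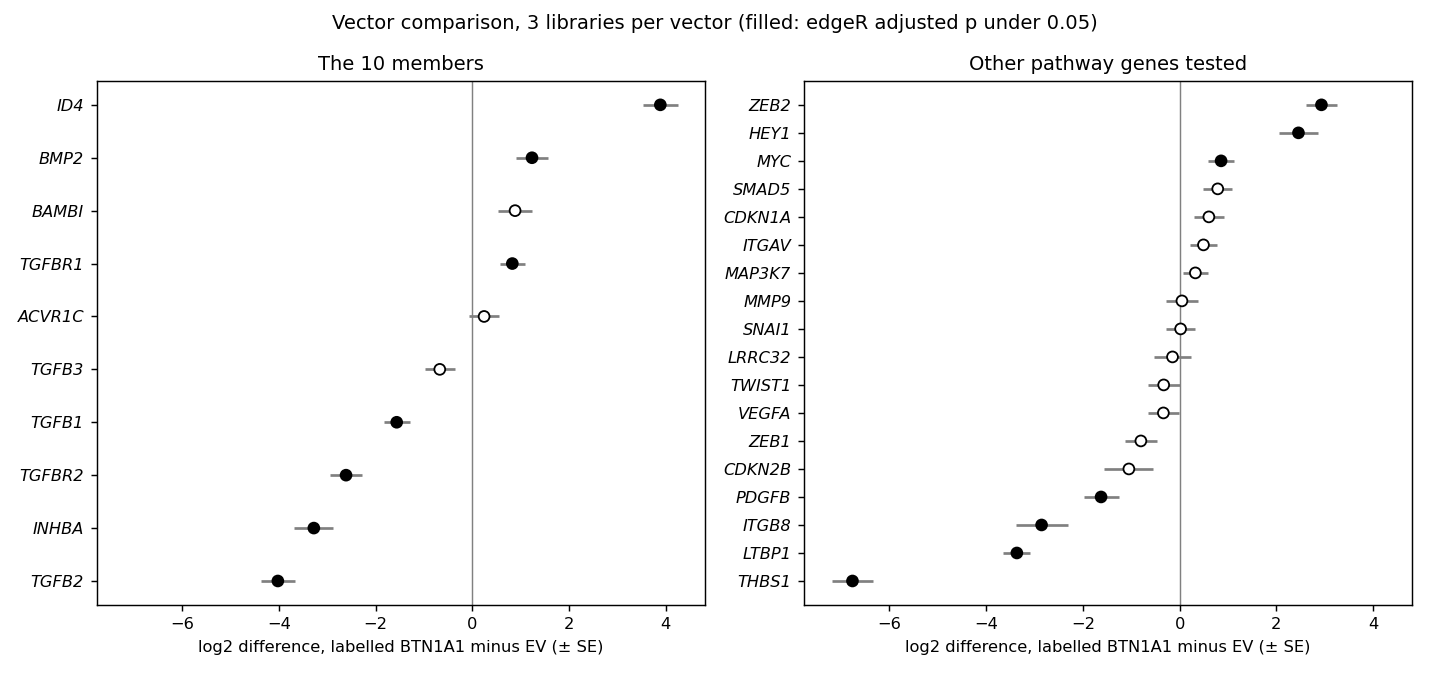
Log2 difference between the libraries labelled BTN1A1 and EV with its SE, for the 10 members on the left and 18 other pathway genes on the right. Filled circles passed edgeR's adjusted threshold; among the members they run from TGFB2 at -4.02 to ID4 at 3.89, and THBS1 at -6.76 lies farthest from 0.

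The rest of the pathway was read from lists of further ligands and inhibitors, activators of latent TGF-beta, transducers and SMAD targets, of which 19 genes were on the panel and 18 were tested. Of the 18, 3 passed as higher and 4 as lower, and 11 did not pass, beside 42.3% of all genes tested (11.7% higher, 30.6% lower), so calls in these lists were about as common as on the panel as a whole. Among the genes that store or free latent TGF-beta, LTBP1, which binds the latent complex to matrix, stood at 1413, 1476 and 2015 in EV. It stood at 152, 124 and 204 in the libraries labelled BTN1A1, a log2 difference of -3.36 (SE 0.28, edgeR adjusted p 6.41e-05). THBS1, thrombospondin 1, which can activate latent TGF-beta, stood at 1660, 1792 and 1681 against 16.9, 8.52 and 24.5. The log2 difference was -6.76 (SE 0.43, edgeR adjusted p 3.49e-05), and its counts in the libraries labelled BTN1A1 were at background. ITGB8, the beta subunit of an integrin that activates latent TGF-beta, stood at 263, 105 and 111 against 14.3, 14.5 and 36.8 (-2.85, SE 0.54, edgeR adjusted p 0.00366).

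ITGAV, the alpha subunit that pairs with ITGB8, was 0.49 (SE 0.29), LRRC32 was -0.15 and MMP9 was 0.05, and none of these 3 passed. Of the signal transducers, SMAD5, a SMAD of the BMP branch, was 0.79 (SE 0.29, edgeR adjusted p 0.0657), and the TGF-beta-activated kinase MAP3K7 was 0.33 (SE 0.25); neither passed. Of 10 tested genes listed as SMAD targets, ZEB2, a repressor of E-cadherin, was higher at 2.93 (SE 0.32), with 35.0, 31.3 and 30.6 in EV and 273, 211 and 262 in the libraries labelled BTN1A1. HEY1, a transcriptional repressor also known as a Notch target, was higher at 2.46 (SE 0.40). Its gap was 9.97-fold untreated, 6.38-fold at 24 h and 2.57-fold at 48 h, each from 1 library against 1. MYC was higher at 0.86 (SE 0.26). PDGFB, a growth factor of the platelet-derived family, was lower at -1.62 (SE 0.36). The other 6, CDKN1A, CDKN2B, SNAI1, TWIST1, VEGFA and ZEB1, did not pass and ran from -1.05 to 0.60. The 10 listed targets had a median of -0.15, beside -0.32 over all genes tested. The counts of ZEB2 in EV were below the immune probes' 90th percentile in every library, and those of PDGFB were above it in 1 EV library and in none labelled BTN1A1.

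The second question was whether interferon-gamma moved these genes. In EV, with 24 and 48 h as the treated samples, 0 of the 10 members passed edgeR's quasi-likelihood test, against 11.4% of all genes (10.3% higher, 1.05% lower), and 0 had an unadjusted p under 0.05. DESeq2 and limma also called 0. The log2 values ran from -0.66 for ACVR1C to 0.94 for TGFB2, with 1 member above 0 and 9 below, and a median of -0.29 beside -0.11 over all genes. The summed scaled count of the 59 immune probes stood at 1687 untreated, 1277 at 24 h and 1417 at 48 h, and its part in the values below 0 was not tested. The single untreated library has no spread of its own in this model, and by the labels the 24 h library differs from the untreated one in time too. The p-values of this model match a spread taken almost wholly from all genes tested together. An SE here is therefore not the scatter of that gene alone.

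TGFB2 was the member above 0. Its log2 difference over both times was 0.94 (SE 0.50, edgeR adjusted p 0.311). Library against library, TGFB2 was 1.85-fold higher at 24 h (log2 0.89, 95% interval 0.70 to 1.07) and 2.0-fold higher at 48 h (1.0, 0.81 to 1.19). The 24 and 48 h libraries were level within counting error, at 0.12 (-0.04 to 0.27). With total counts as the scale, which stood at 286341 untreated and 441611 and 403510 treated, the value over both times was 0.39.

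TGFB1 lay below its untreated count at both times in EV, at -0.32 (-0.45 to -0.18) and -0.30 (-0.44 to -0.16). TGFBR2 did too, at -0.60 (-0.79 to -0.42) and -0.30 (-0.48 to -0.12). TGFBR1 was -0.03 (-0.28 to 0.22) at 24 h and -0.33 (-0.61 to -0.05) at 48 h. Such intervals cover counting error in 1 library against 1, and no member passed the test across libraries. INHBA was -0.29 (-0.66 to 0.07) and 0.17 (-0.18 to 0.53), and TGFB3, BMP2 and BAMBI gave intervals that held 0 at both times. ID4, within the background in EV, was -1.04 (-2.14 to -0.01) at 24 h and -0.27 (-1.24 to 0.67) at 48 h. At 24 h 1 member, ACVR1C, was counted as at least 2-fold lower (39 and 21 barcodes), against 19.2% of genes compared (12.4% higher, 6.80% lower). Both counts lay under the 90th percentile of the immune probes, whose median went from 25.7 to 18.4, and the count of members was 0 with a floor of 50 and with TMM. At 48 h TGFB2 was the 1 such member, against 18.1% (14.7% higher, 3.42% lower), and the count was 0 with TMM and with total counts.

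In the libraries labelled BTN1A1, 0 of the 10 members passed, against 1.05% of all genes, and 0 had an unadjusted p under 0.05. At so small a share 0 of 10 says little about the members. DESeq2 also called 0 members. Because limma called 0 genes on the whole panel here, its 0 members add nothing. The log2 values ran from -0.15 for ACVR1C to 0.94 for INHBA, with a median of 0.06 beside 0.12 over all genes. BAMBI had a value of 0.78 (SE 0.55, edgeR adjusted p 0.999), at 0.77 (0.18 to 1.39) after 24 h and 0.80 (0.15 to 1.45) after 48 h. TGFBR2 was -0.01 (-0.49 to 0.47) at 24 h and 0.82 (0.37 to 1.28) at 48 h. BMP2 was 0.48 (0.11 to 0.85) at 24 h and -0.10 (-0.56 to 0.35) at 48 h. TGFB1 (0.09 and 0.15) and TGFBR1 (-0.03 and 0.04) had intervals that held 0 at both times, and TGFB2 and INHBA were near or under background here. With the floor of 20, 0 of 9 members compared reached a 2-fold difference at 24 h (6.27% of genes compared, 3.05% higher and 3.23% lower) and 0 of 10 at 48 h (4.86%). The background itself was higher in the 48 h library, with a scaled immune median of 25.7 beside 17.8 untreated and a sum of 1609 beside 1085; its part in the 48 h values was not tested.

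**Figure D3:**
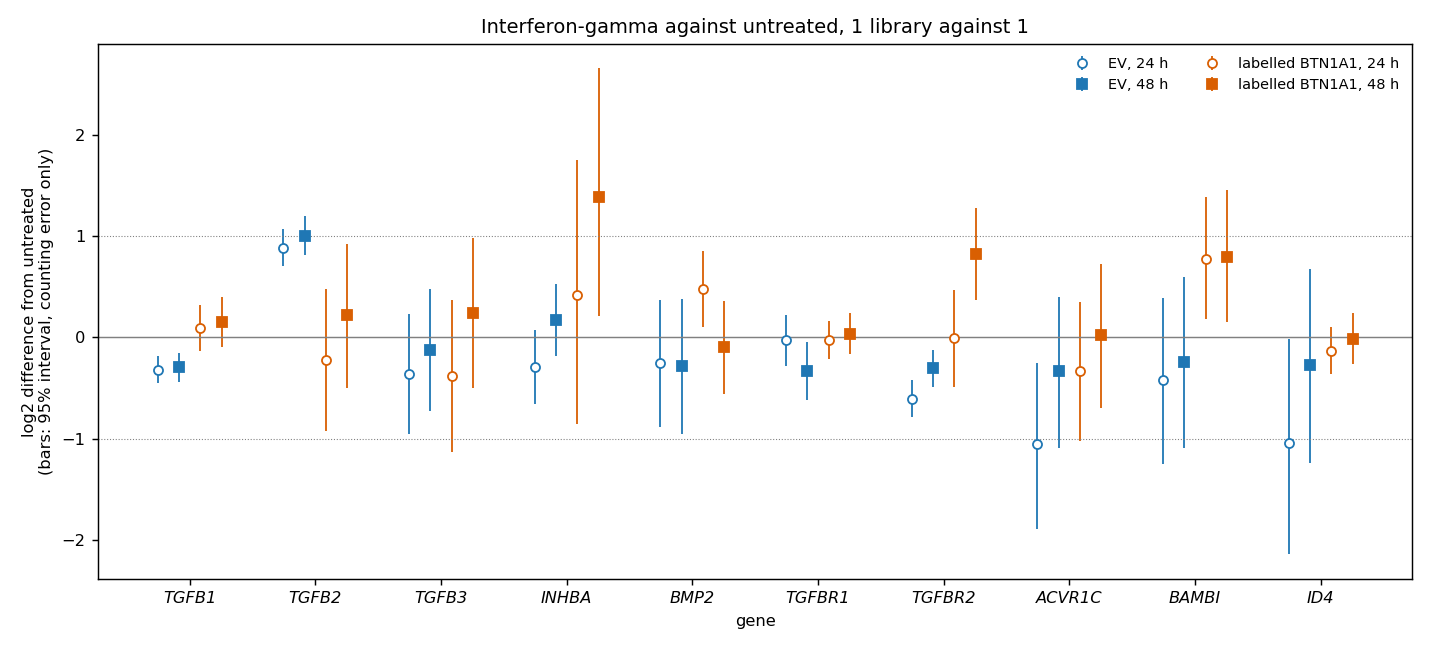
Log2 difference of each treated library from the untreated library of the same vector, with 95% intervals for counting error only; open symbols are 24 h and filled symbols 48 h. TGFB2 in EV lies at 0.89 and 1.0, while BAMBI in the libraries labelled BTN1A1 lies at 0.77 and 0.80 with wide intervals.

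Between 24 and 48 h 0 members differed 2-fold in EV (6.34% of genes compared, 5.23% higher and 1.11% lower) or in the other vector (7.80%, with 7.02% higher and 0.780% lower). INHBA in EV was 0.47 higher in log2 at 48 h than at 24 h (0.11 to 0.83). In the libraries labelled BTN1A1 BMP2 was -0.57 (-1.0 to -0.16) and TGFBR2 0.83 (0.38 to 1.28) on the same scale. In EV TGFBR2 was 0.30 (0.11 to 0.50) and TGFBR1 -0.30 (-0.58 to -0.03).

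The difference in response between the vectors was the interaction term of the model. In it, 0 of 10 members passed, against 4.48% of all genes (0.299% higher, 4.19% lower), with 0 at an unadjusted p under 0.05 and 0 in DESeq2 and limma. At this share 0 of 10 says little about the members. The largest values were those of BAMBI, at 1.11 (SE 0.80), INHBA, at 0.98 (SE 0.92), and TGFB2, at -0.94 (SE 0.72), with an edgeR adjusted p of 0.770, 0.864 and 0.770. TGFBR2 followed at 0.90 (SE 0.70, adjusted p 0.770). These SEs rest almost wholly on the spread of all genes tested. They are nearly as large as the estimates, so the data do not show that the responses were alike. BAMBI in EV and INHBA in the libraries labelled BTN1A1 exceeded the immune probes' 90th percentile in 0 of 3 libraries. TGFB2 in the libraries labelled BTN1A1 did so in 1 of 3. The response of each in that vector is therefore read from counts at or near background. The sign was positive for 9 members and negative for TGFB2, with a median of 0.50 beside 0.18 over all genes tested. The immune probes that passed the filter on low values had medians of 0.54 (19 T and NK), 0.86 (6 B) and 0.78 (16 myeloid). A probe near background passes most easily through untreated EV and 48 h labelled BTN1A1, where the immune median was highest (25.7 in each). High counts there also make the interaction positive, so these medians are partly set by the filter and are no fair gauge. All 59 immune probes together summed to 1687, 1277 and 1417 scaled counts in EV (untreated, 24 h, 48 h). In the libraries labelled BTN1A1 they summed to 1085, 1059 and 1609. The part of the background in the members' interaction values was not tested.

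Of the other pathway genes, 0 of 18 passed for interferon-gamma in EV, against 11.4% of all genes tested. In the libraries labelled BTN1A1 it was 0 of 18 against 1.05%, and in the interaction 0 of 18 against 4.48%. At shares as small as the last 2, 0 of 18 says little about these genes. An unadjusted edgeR p under 0.05 was reached by 2, 0 and 2 of them in turn, and the share of all genes at that level was not counted. Up to 2 genes of each list are named, those farthest from 0 within their list. In EV they were ITGB8 at -1.28 (SE 0.53, adjusted p 0.114), HEY1 at 1.12 (SE 0.54), PDGFB at -1.01, SMAD5 at -0.67, LRRC32 at -0.66 and LTBP1 at 0.30. By the same rule they were, in the libraries labelled BTN1A1, ITGB8 at 0.80, MMP9 at 0.68, VEGFA at -0.49, HEY1 at -0.43, SMAD5 at 0.15 and LTBP1 at 0.10. The interaction, with genes named by the same rule, was 2.09 for ITGB8 (SE 0.86, adjusted p 0.219), -1.55 for HEY1 (SE 0.73), 1.26 for LRRC32, -0.96 for ZEB1, 0.82 for SMAD5 and -0.21 for LTBP1. MAP3K7 lay between -0.06 and 0.02 in all 3. LRRC32 exceeded the immune probes' 90th percentile in 0 libraries of either vector. ITGB8 exceeded it in 3 EV libraries and in 0 labelled BTN1A1, so its value there is read from background counts.

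Panel genes with the most similar profile were found for the 4 members that spanned more than 2 log2 units. Likeness was the mean absolute difference in log2 scaled count over the 6 libraries, after each gene was centred on its own mean. Nearest to TGFB2 was IFITM2, an interferon-induced membrane protein, at 0.12, with 1116, 1674 and 1752 scaled counts in EV and 99.8, 75.0 and 115 in the libraries labelled BTN1A1. BCL2L1, a survival factor, followed at 0.18 and MB21D1, the DNA sensor cGAS, at 0.24. Nearest to INHBA were the Wnt ligand WNT7B at 0.13, the gluconeogenic enzyme FBP1 at 0.15 and the cytokine TNFSF12 at 0.16. Nearest to TGFBR2 were WNT7B at 0.12, TNFSF12 at 0.12 and CDH1 at 0.15. Nearest to ID4 was the receptor kinase KIT at 0.20, and the arginase ARG2 lay at 0.26. All of the genes named differ between the vectors in the direction of their member, in a comparison that 42.3% of the genes tested passed. That shared direction was set by the choice of nearest genes over the same 6 libraries and is no separate result.

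**Figure D4:**
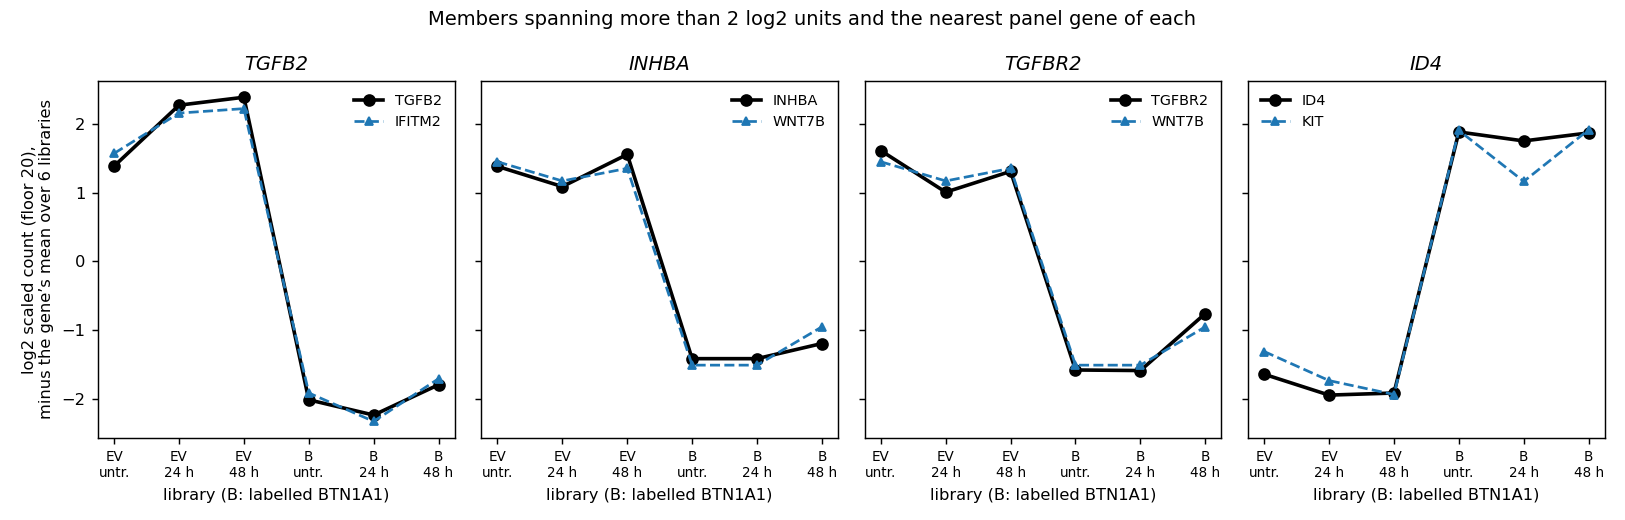
Log2 scaled counts (floor 20) over the 6 libraries, each gene centred on its own mean, for TGFB2, INHBA, TGFBR2 and ID4 (solid black) and the nearest gene of each (dashed). TGFB2 and IFITM2 are 0.12 apart on average, and ID4 and KIT 0.20.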

How the data were processed

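The panel was the nCounter PanCancer IO 360, per the series' design text, run on total RNA, per the labels. The deposited values are whole-number counts, taken here as barcodes; no source used here says how they were made or whether control probes entered. Library sizes were set by the geometric mean of 20 housekeeping genes, with no background subtraction. A gene was tested if 2 or more libraries reached 20 scaled counts (669 tested, 101 left out).

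The main test was the quasi-likelihood F test of edgeR (version 4.0.16, in R 4.3.3), with Benjamini-Hochberg adjustment at 0.05. Terms were vector and condition for the vector difference, and vector, treatment and their product otherwise. Each model left 2 residual degrees of freedom, and edgeR moderated each gene's spread with that of all genes tested. In the model with treatment that shared spread made up almost all of it. The SE was taken as the size of the log2 difference over the root of F. Single libraries were compared without a test after values under 20 were raised to 20; differences of at least 2-fold were counted, and 95% intervals are exact binomial on unfloored counts and cover counting error only. The fits were also run on simulated counts with the same spread for every gene, a simpler setting than these data. The outcome is not reported here.

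The members and the gene lists were chosen with earlier results of these data known. Named genes were all members, pathway-list genes past the threshold, otherwise the 2 farthest from 0 per list and comparison, and the 3 nearest genes of members spanning over 2 log2 units; some of these results are not reported here. Alternatives were TMM and total-count scaling, DESeq2 (1.42.0), limma (3.58.1), no filter or a minimum of 50, each library left out, no condition term, each vector alone, and a floor of 50.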

Additional observations from a re-analysis of the deposited data

How the results depend on the processing

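The vector comparison called 7 members, and 5 to 8 over 13 alternatives (5 to 8 with a library left out). TGFB1, TGFB2, INHBA, TGFBR2 and ID4 passed in all 13. For interferon-gamma in either vector and for the interaction, 0 members were called in any of the 11, 11 and 10 alternatives that could be fitted; without an untreated library the coefficient of its vector cannot be estimated. At least 2-fold differences in EV at 24 h (1 member) became 0 with a floor of 50, 2 with total counts and 0 with TMM, and at 48 h (1 member) 0 with total counts and 0 with TMM; the other 22 of 27 such counts stayed within 1.5 times.

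Signs turned in 12 of 445 member values, none with an adjusted p under 0.05. For interferon-gamma in the libraries labelled BTN1A1, TGFB2 (0.0051) became -0.00027 with TMM, -0.018 with total counts and -0.0014 in limma, and TGFBR1 (0.0039) became -0.015 with total counts. With a library left out the values there ran from -0.22 to 0.22 for TGFB2, -0.38 to 0.24 for TGFB3, -0.10 to 0.48 for BMP2, -0.33 to 0.022 for ACVR1C, -0.029 to 0.037 for TGFBR1 and -0.0082 to 0.82 for TGFBR2. They ran from -0.29 to 0.17 for INHBA in EV and from -0.14 to 0.48 for the interaction of TGFB3. Genes called over the whole panel ranged from 213 to 327 for the vector (283), 49 (without EV at 48 h) to 156 (total counts, 63 higher and 93 lower) for EV (76), 0 (TMM, limma or a minimum of 50) to 9 for the libraries labelled BTN1A1 (7; 3 without either treated EV library, 1 without BTN1A1 at 48 h) and 13 (without EV at 48 h) to 39 for the interaction (30). Total-count scaling moved the median response of all genes in EV from -0.11 to -0.66. The causes were not tested. No paired analysis was possible because the labels carry no replicate numbers; the vector test pairs libraries by condition only, through its condition term, without which it called 8 members. The background, near 20 counts, limits what can be read for TGFB3, ACVR1C, BAMBI and, in 1 vector each, INHBA, TGFB2 and ID4.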

Other observations

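Some listed pathway genes differed between 24 and 48 h of interferon-gamma in EV. Of 18 compared, 3 were at least 2-fold higher at 48 h than at 24 h, against 5.23% of all genes compared, and 0 lower, each from 1 library against 1 with no test. CDKN2B, a cyclin kinase inhibitor known as a TGF-beta target, stood at 290 scaled counts untreated, 59.8 at 24 h and 384 at 48 h, a 6.41-fold difference between the times; it was named after its values were seen. HEY1 stood at 550, 526 and 1872 (3.56-fold) and the angiogenic factor VEGFA at 143, 122 and 262 (2.16-fold). In the libraries labelled BTN1A1 0 of 18 reached 2-fold between the times, with CDKN2B at 83.8, 88.6 and 113.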
